A study of Mus musculus with 2 samples.

Results

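Interferon-stimulated effector genes are the genes that a cell switches on when interferon binds its receptor, and whose products block viruses or sense their nucleic acids. The set described here was a list of 35 such genes, taken by symbol from the mouse heart single-cell matrices. Interferon regulatory factors, Stat genes and interferon-induced GTPases other than Mx1 and Mx2 were left out of the list. Of the 35 symbols, 33 were among the 22441 gene symbols of both matrices, and Mx1 and Mx2 were not. The list was set by name, not by measured values of these cells.

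Single cells came from fresh hearts of C57/B6 mice of 2 genotypes, labelled Wild Type and AC8 Overexpressing, with no treatment, and the wild-type mice were littermates. AC8 is adenylyl cyclase 8, which makes cyclic AMP, and the series title places its overexpression in cardiomyocytes, which were not sorted. Leukocytes (CD45+CD31-), mesenchymal cells (CD45-CD31-) and endothelial cells (CD45-CD31+) were sorted, mixed in equal numbers and made into 1 droplet library per genotype from pooled mice. The labels used here do not state age, sex, the number of mice or the promoter that drives AC8. Each genotype therefore has 1 library, no difference has a replicate check, none was tested, and genotype and library cannot be told apart. Cells with at least 1000 unique molecular identifiers (UMIs, each 1 captured RNA molecule) and 500 genes were kept, 3546 in wild type (median 1884 UMIs) and 3578 in AC8 (median 2323). They formed 21 clusters, and all were assigned to 10 classes by marker genes, called "like" a cell type. All 8 markers of fibroblasts, of macrophages and of endothelial cells had UMIs in their class in both libraries. Classes with at least 100 cells in each library were fibroblast-like (1899 in wild type and 1535 in AC8), macrophage-like (608 and 756), endothelial-like (619 and 570) and B cell-like (111 and 292). Levels are UMIs per 1000000 UMIs of the class (CPM), wild type always first and AC8 second. Intervals are at 95% and express counting error alone, so they leave out how far cells, mice or preparations vary.

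Type I interferons signal through a receptor made of Ifnar1 and Ifnar2 and the kinases Jak1 and Tyk2 to a complex of transcription factors. That complex binds the interferon-stimulated response element, a DNA stretch of paired GAAA repeats, in the promoters of its target genes. Interferon gamma acts through another element, the gamma-activated site. In the heart the response has been studied in viral myocarditis and after infarction.

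The promoter stretches below are from 7 members that hold a match to that element, and they were chosen for the match. Ifitm3, which is also followed in the text, has an entry in the table and no match. They come from the RefSeq promoter table of build GRCm38.p6, and each lies before the gene's start, read 5′ to 3′ on the gene's strand. Capitals mark matches to the response element core, GAAA, any 2 bases and GAAA again, on either strand (on the other strand TTTC, any 2 bases, TTTC), and overlapping matches run together. Isg15 is on the minus strand at chr4:156200849-156200928, Ifit1 on the plus strand at chr19:34640759-34640838, Ifit3 at chr19:34583349-34583428 and Ifit3b at chr19:34607745-34607824, both plus. Rsad2 is on the minus strand at chr12:26456523-26456602, Bst2 at chr8:71537553-71537632 and Ifitm2 at chr7:140955992-140956071, both minus.
Isg15: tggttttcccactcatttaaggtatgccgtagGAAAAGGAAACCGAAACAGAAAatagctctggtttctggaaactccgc
Ifit1: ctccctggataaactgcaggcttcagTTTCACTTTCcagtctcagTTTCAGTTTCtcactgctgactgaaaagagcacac
Ifit3: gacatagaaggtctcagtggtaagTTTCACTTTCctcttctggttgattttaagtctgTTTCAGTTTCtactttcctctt
Ifit3b: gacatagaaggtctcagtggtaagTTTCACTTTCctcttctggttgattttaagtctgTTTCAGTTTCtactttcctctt
Rsad2: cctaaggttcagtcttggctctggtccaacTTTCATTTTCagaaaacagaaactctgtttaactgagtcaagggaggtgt
Bst2: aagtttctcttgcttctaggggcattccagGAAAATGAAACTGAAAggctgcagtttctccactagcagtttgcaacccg
Ifitm2: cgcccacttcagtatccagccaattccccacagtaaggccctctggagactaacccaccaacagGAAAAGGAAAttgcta

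Isg15 carried 3 overlapping matches, Ifit1, Ifit3, Ifit3b and Bst2 2 each, and Rsad2 and Ifitm2 1 each. The stretches of Ifit3 and Ifit3b were identical over all 80 bases, while their 250 bases before the start were 76.6% identical when aligned. Of the 25 members with an entry in the table, 11 (44%) held this core in the 250 bases before the start, against 936 of 27025 genes (3.46%) in the whole table. For the gamma-activated site core TTCNNNGAA the counts were 5 of 25 members (20%) and 8.13% of genes. A match describes letters in this window, not a bound factor.

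Among the larger classes most members were at their highest in endothelial-like cells. Of the 4 classes with at least 100 cells per library, 23 of 33 members had their highest CPM in endothelial-like cells, in each library, and the highest class was the same in both libraries for 28. Over all 10 classes, 6 of them with few cells, endothelial-like cells were highest for 13 members in wild type and 16 in AC8, and monocyte-like cells for 12 and 6. How many of all genes were highest in each class, or in the same class in both libraries, was not counted. These counts of highest classes thus have no background beside them. For 12 core members of the antiviral response (Ifit1, Ifit2, Ifit3, Ifit3b, Isg15, Oasl1, Oasl2, Rsad2, Usp18, Cmpk2, Ifi44 and Rtp4), the summed level in endothelial-like cells was 1116 CPM (interval 1049 to 1187) and 1580 CPM (1499 to 1664). In macrophage-like cells it was 248 (223 to 276) and 514 (487 to 541), and in fibroblast-like cells 224 (211 to 239) and 450 (431 to 471). The level was lowest in B cell-like cells among all 10 classes in both libraries, at 125 (75.3 to 195) and 76.9 (51.5 to 110). Those intervals overlapped the ones of dendritic cell-like (116 to 234 and 81.7 to 138) and T cell-like cells (119 to 338 and 74.4 to 211). Fibroblast-like and macrophage-like cells overlapped in wild type and not in AC8.

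Rsad2, which encodes viperin, an enzyme that makes a chain-terminating nucleotide, showed a steep class pattern. It was at 188 and 291 CPM in the endothelial-like class, 12.9 and 26.5 in the macrophage-like class and 5.72 and 11.6 in the fibroblast-like class. The fibroblast-like level was 3.05% and 3.98% of the endothelial-like one. Free RNA from endothelial cells was gauged from the 8 endothelial markers, whose levels in fibroblast-like cells were between 0.611% and 3.94% of their endothelial-like level in wild type and between 0.286% and 5.36% in AC8. The Rsad2 share lies within that range and above the marker medians, 0.951% and 0.709%. Its 51 AC8 UMIs in fibroblast-like cells came from 20 cells, 14 of them from 1 cell, and the part of free RNA in its level was not tested. Isg15 (20.9% and 29.0%), Ifit3 (38.6% and 61.2%) and Bst2 (22.2% and 29.1%) lay above it.

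Ifi27l2a, an interferon-induced protein of mitochondria and the nuclear envelope, had the opposite pattern. It was abundant in fibroblast-like cells (1368 and 2983 CPM) and macrophage-like cells (1318 and 2073) and low in endothelial-like cells (48.0 and 114). The endothelial-like level was 3.51% and 3.81% of the fibroblast-like one, while the 8 fibroblast markers in endothelial-like cells spanned 0.756% to 4.72% and 0.718% to 5.54% of theirs. Against macrophage-like cells its share was 3.64% and 5.48%, above the 8 macrophage markers at 0.388% to 2.16% and 0.447% to 2.30%. The part of free RNA in the endothelial-like level of Ifi27l2a was not tested.

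**Figure D1:**
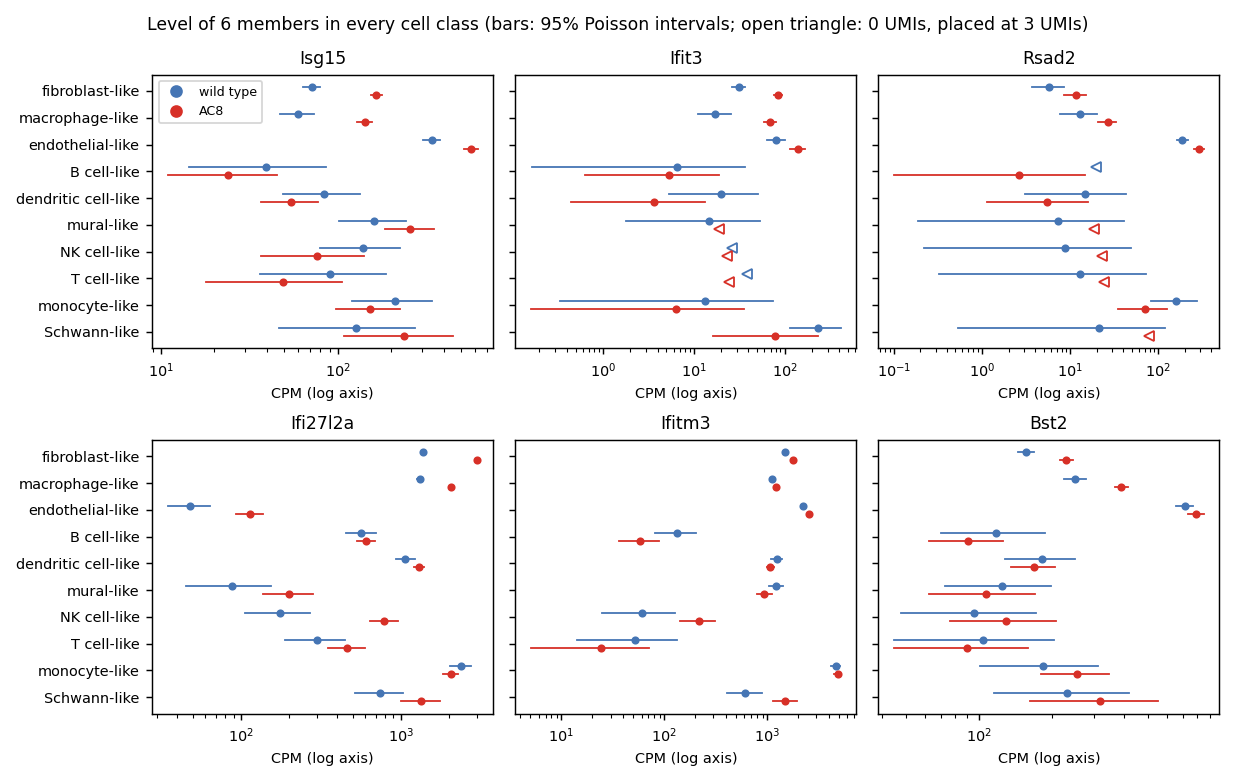
Level of 6 members in 10 cell classes, as UMIs per 1000000 UMIs of the class (CPM) on a log axis, for the wild-type library (blue) and the AC8 library (red). Points are CPM and bars 95% Poisson intervals for counting error, and an open triangle marks a class with 0 UMIs at the level 3 UMIs would give. Isg15, Ifit3 and Rsad2 stood high in endothelial-like cells and Ifi27l2a stood low there, at 48.0 and 114 CPM.

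AC8 cells of the 3 largest classes had higher levels of most members. In fibroblast-like cells 24 of 29 measured members (at least 30 UMIs over both libraries) were higher in AC8, with a median log2 ratio of 0.30 against -0.05 for all 10625 genes measured. Past 1.5-fold on the log2(CPM + 10) scale were 5 higher and 0 lower, where 0.828% of all measured genes were past it higher and 2.94% lower. In macrophage-like cells 23 of 32 were higher (median 0.43 against -0.03), 10 past 1.5-fold higher and 1 lower, beside 5.46% and 6.36% of all measured genes. In endothelial-like cells 20 of 29 were higher (0.16 against -0.02), 8 past 1.5-fold higher and 0 lower, beside 4.37% and 5.61%. Over all measured genes 42.2%, 47.3% and 47.7% were higher in AC8 in the 3 classes. Without the 5% of cells that held the most core UMIs, 6 members in macrophage-like and 2 in endothelial-like cells were past 1.5-fold higher, and over all deposited cells 3 in endothelial-like cells were. The scale understates the ratio of genes at low levels.

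The core members, a list chosen with earlier results of these data known, stood further apart than the rest. Their median log2 ratio was 0.44 in fibroblast-like, 0.79 in macrophage-like and 0.39 in endothelial-like cells, against 0.23, 0.13 and 0.07 for the other measured members. Because of that choice the contrast is a description. Of 26 members measured in all 3 classes, 15 were higher in AC8 in each, 2 were lower in each (Ifi203 and Parp14) and 9 were mixed. Of the named values behind these, Ifi35 in macrophage-like cells and Rtp4 and Parp14 in endothelial-like cells crossed a ratio of 1 under another setting. Ifit1, Ifit3, Ifit3b, Isg15 and Ifi27l2a were past 1.5-fold in all 3. The share of all genes with the same direction, or past the fold, in all 3 classes was not counted. These counts of members therefore have no background beside them. In macrophage-like cells the median of the list was 0.19 without the 5% of cells that held the most core UMIs and 0.14 with every cell thinned to 1000 UMIs.

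**Figure D2:**
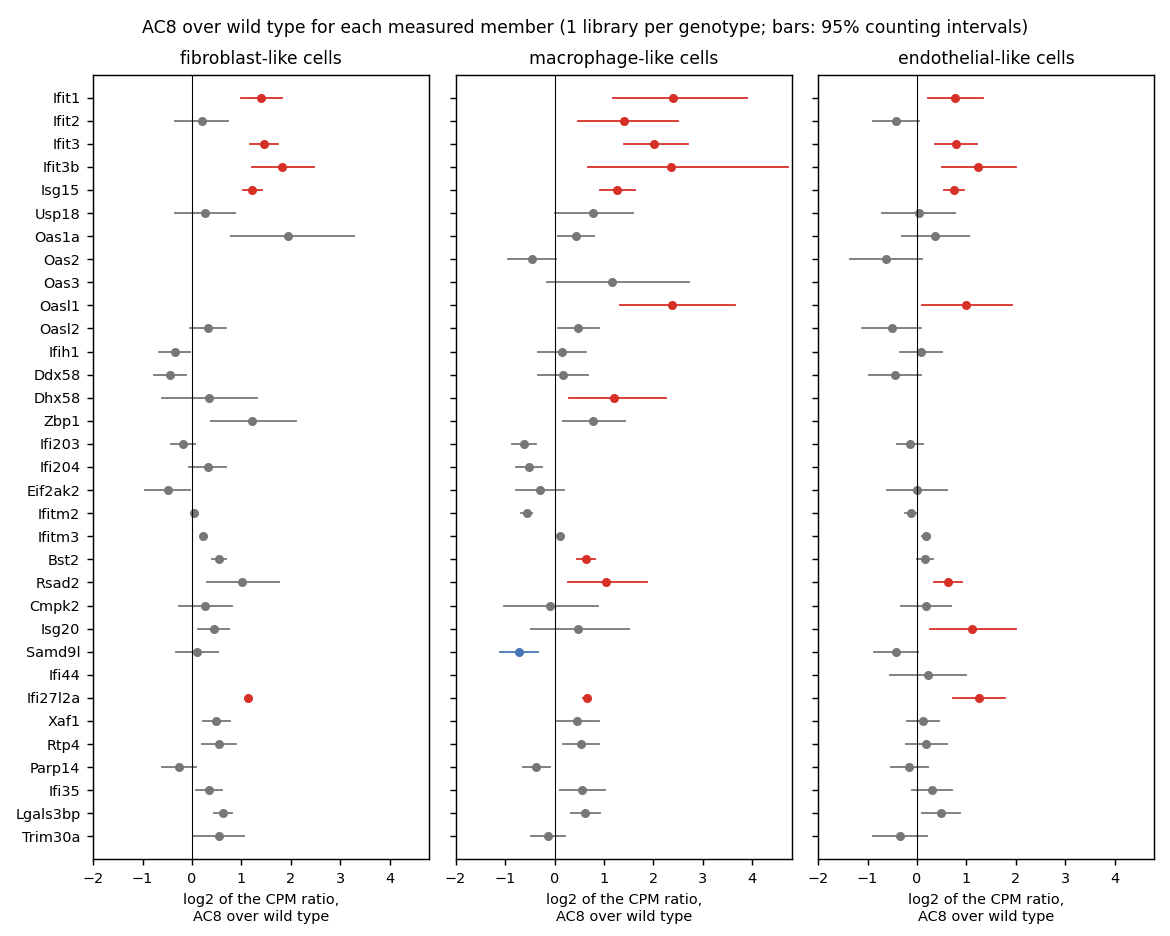
Log2 of the CPM ratio of AC8 over wild type for each measured member in 3 classes, grouped by role, with 95% counting intervals and no pseudocount. Red and blue points are past 1.5-fold higher (5, 10 and 8 members) and lower (0, 1 and 0) on the log2(CPM + 10) scale, and grey points are not.

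The IFIT proteins bind foreign RNA by its 5′ end and stop its translation, and their genes lie side by side on chromosome 19 (GRCm38, Ifit2 at 34550694 to 34576419, Ifit3 at 34583531 to 34588731, Ifit3b at 34607970 to 34613401 and Ifit1 at 34640871 to 34650009, all plus strand). Ifit3 had 31.1 and 85.1 CPM in fibroblast-like cells, a ratio of 2.73 (interval 2.24 to 3.35). In macrophage-like cells it had 17.2 and 69.6 CPM, a ratio of 4.05 (2.64 to 6.48), and in endothelial-like cells 80.7 and 139, a ratio of 1.73 (1.28 to 2.33). Ifit3 was thus higher in AC8 in each of the 3 classes, with every interval above 1. Of its 189 UMIs in AC8 macrophage-like cells, 40 came from 1 cell, and the interval does not take such clumping into account.

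Ifit1 followed the same direction in fibroblast-like cells (16.0 and 42.2 CPM), macrophage-like cells (4.29 and 22.5) and endothelial-like cells (50.2 and 85.7). Its ratios were 2.63 (1.99 to 3.52), 5.23 (2.27 to 14.8) and 1.71 (1.17 to 2.52). In AC8 macrophage-like cells 1 cell held 16 of its 61 UMIs. Without the 5% of cells with the most core UMIs the Ifit1 ratios were 4.33 in fibroblast-like and 1.09 in endothelial-like cells, and the Ifit3 ratio in macrophage-like cells was 2.58. Ifit3b, with 6.64 and 23.4, 2.15 and 11.0, and 25.1 and 59.0 CPM in the same order, had ratios of 3.52, 5.14 and 2.35. The macrophage-like value rests on 3 UMIs in wild type and 30 in AC8, so its interval ran from 1.6 to 26.3. Ifit3 and Ifit3b share 35.1% and 30.5% of the 90-base windows of their transcripts with each other, so reads could be split between them and their separate counts are uncertain.

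Ifit2, from the same gene cluster, was past 1.5-fold higher in AC8 in macrophage-like cells alone. Fibroblast-like cells had 13.1 and 15 CPM of it (ratio 1.15, 0.793 to 1.67), macrophage-like cells 7.87 and 21.0 (2.67, 1.38 to 5.64) and endothelial-like cells 102 and 76.8 (0.75, 0.541 to 1.03). The intervals of the fibroblast-like and endothelial-like ratios included 1. The macrophage-like ratio rests on 11 UMIs in wild type and 57 in AC8, of which 19 came from 1 cell. Its 250 bases before the start held no match to the response element core.

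Isg15, a ubiquitin-like protein that is joined to other proteins (chromosome 4, 156199424 to 156200818, minus strand), was at 71.2 and 165 CPM in fibroblast-like cells, a ratio of 2.32 (2.03 to 2.66). It was at 59.4 and 142 CPM in macrophage-like cells, a ratio of 2.39 (1.88 to 3.07), and at 341 and 571 in endothelial-like cells, a ratio of 1.67 (1.45 to 1.93). All 3 intervals lay above 1, and the order of the classes was the same in both libraries. Without the 5% of cells with the most core UMIs the macrophage-like ratio was 1.42. Usp18, the protease that removes ISG15 and dampens the type I receptor (chromosome 6, 121245906 to 121270917, plus strand), had ratios nearer 1, 1.19 (0.785 to 1.82) in fibroblast-like and 1.02 (0.616 to 1.69) in endothelial-like cells, and 1.71 (1.01 to 3.02) in macrophage-like cells.

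The 2′,5′-oligoadenylate synthetases make the messenger that activates RNase L on double-stranded RNA, and Oasl1 and Oasl2 are relatives of them. Oasl1 (chromosome 5, 114923240 to 114937915, plus strand) was at 5.73 and 29.8 CPM in macrophage-like cells, with 8 and 81 UMIs and a ratio of 5.21 (2.52 to 12.47). In endothelial-like cells it was at 18.5 and 36.7 CPM, a ratio of 1.98 (1.07 to 3.79). It had too few UMIs in fibroblast-like cells to be measured. Oasl1 was thus among the members furthest apart in macrophage-like cells, but 21 of its 81 AC8 UMIs there came from 1 cell.

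Among the 3 largest classes Oas1a was highest in macrophage-like cells (63.7 and 85.8 CPM), then in endothelial-like (38.2 and 49.0) and fibroblast-like cells (1.83 and 7.04). The small monocyte-like class stood above them at 119 and 108 CPM, from 9 and 17 UMIs. Of the Oas1a transcript windows 43.4% are shared with Oas1g. Oas2 was lower in AC8 in both classes where it was measured, 46.5 and 33.9 CPM in macrophage-like and 48.0 and 31.2 in endothelial-like cells, with intervals that included 1. Oasl2 was at 49.4 and 68.9 CPM in macrophage-like cells, a ratio of 1.39 that became 0.956 with cells thinned to 1000 UMIs, and at 66.5 and 46.8 CPM in endothelial-like cells. Oas3 was measured in macrophage-like cells only (4.29 and 9.57 CPM) and had 0 UMIs in the fibroblast-like cells of each library, where 3 UMIs would have been 0.687 and 0.681 CPM. As a group the synthetases had no common direction in endothelial-like cells, with 2 of 4 measured members higher.

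Sensors differed in direction among themselves and between classes. Ifih1 (MDA5) and Ddx58 (RIG-I), the helicases that detect viral RNA, were lower in AC8 fibroblast-like cells, Ifih1 at 42.6 and 33.4 CPM (ratio 0.783, 0.627 to 0.978) and Ddx58 at 42.8 and 31.5 CPM (0.737, 0.587 to 0.923). In macrophage-like and endothelial-like cells their intervals included 1. Eif2ak2, the RNA-activated kinase PKR that halts translation, was at 23.6 and 16.8 CPM in fibroblast-like cells (0.712, 0.521 to 0.969). Dhx58 (LGP2), a regulator of both helicases, went the other way in macrophage-like cells, with 8.59 and 19.9 CPM (2.31, 1.22 to 4.75). Zbp1, a sensor of Z-form nucleic acid that can start necroptosis, was also higher there, at 21.5 and 36.8 CPM (1.71, 1.13 to 2.67). In fibroblast-like cells 3 of 7 measured sensors were higher in AC8, with a median log2 ratio of -0.15, and in macrophage-like cells 4 of 7, with a median of 0.12.

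Ifi203 and Ifi204, DNA-binding proteins of the PYHIN family on chromosome 1, were lower in AC8 macrophage-like cells. Ifi203 (173920407 to 173942672, minus strand) was at 192 and 125 CPM, a ratio of 0.651 (0.553 to 0.767). Ifi204 (173747293 to 173766943, minus strand) was at 147 and 102 CPM, a ratio of 0.698 (0.580 to 0.840). In fibroblast-like cells Ifi204 was at 24.3 and 30.2 CPM and Ifi203 at 70.3 and 62.2, both with intervals that included 1. Ifi204 shares 18.1% and Ifi203 5.0% of transcript windows with relatives, so part of their reads could belong elsewhere.

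Ifitm2 and Ifitm3 encode membrane proteins that stop virus fusion, and Bst2 encodes tetherin, which holds budding virus at the cell surface. Bst2 (chromosome 8, 71534255 to 71537456, minus strand) had 157 and 230 CPM (ratio 1.47, 1.33 to 1.62) in the fibroblast-like class, 251 and 388 (1.55, 1.37 to 1.75) in the macrophage-like class and 709 and 791 (1.12, 1.0 to 1.24) in the endothelial-like class. It was higher in AC8 in each class and past 1.5-fold in macrophage-like cells only.

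Ifitm3 (chromosome 7, 141009586 to 141010770, minus strand) differed little, with 1500 and 1758, 1113 and 1203, and 2234 and 2535 CPM in the same order, and ratios of 1.17, 1.08 and 1.13 whose intervals lay above 1. Its neighbour Ifitm2 (140954837 to 140955987, minus strand) parted from it in macrophage-like cells, where it was at 815 and 552 CPM, a ratio of 0.678 (0.627 to 0.733). There the ratio was 0.810 without the cluster led by Spp1, which had 7 wild-type and 139 AC8 cells. In fibroblast-like cells Ifitm2 was at 853 and 882 CPM and in endothelial-like cells at 1274 and 1170, where the interval of the ratio (0.919) ended just under 1. Of its transcript windows 37.8% are shared with other annotated genes, so its count is uncertain.

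Among the nucleotide and RNA enzymes, Rsad2 (chromosome 12, 26442746 to 26456452, minus strand) had a ratio of 1.55 (1.27 to 1.89) in endothelial-like cells and 2.06 (1.21 to 3.67) in macrophage-like cells. Cmpk2, its neighbour on the chromosome and a kinase that supplies nucleotides, did not match it, with 69.8 and 79.1 CPM in endothelial-like cells (1.13, 0.797 to 1.61) and 11.5 and 10.7 in macrophage-like cells (0.932, 0.490 to 1.84). Isg20, an exonuclease that degrades RNA, was at 19.6 and 42.3 CPM in endothelial-like cells (2.16, 1.20 to 4.01) and 35.04 and 47.4 in fibroblast-like cells (1.35, 1.09 to 1.68). Samd9l, which restrains translation and proliferation, was the only member past 1.5-fold lower in the 3 classes, in macrophage-like cells, at 78.7 and 47.9 CPM (0.608, 0.468 to 0.791). No member was past it there without doublet removal or without the Spp1 cluster. In endothelial-like cells it was at 113 and 84.6 CPM, with an interval that included 1.

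Of the remaining members Ifi27l2a (chromosome 12, 103442167 to 103443680, minus strand) had a ratio of 2.18 (2.11 to 2.25) in fibroblast-like cells, 1.57 (1.49 to 1.66) in macrophage-like cells and, at its low level there, 2.37 (1.65 to 3.45) in endothelial-like cells. Lgals3bp, a secreted glycoprotein that binds galectin-3, was at 88.2 and 136 CPM in fibroblast-like cells (1.54, 1.35 to 1.75) and 90.9 and 140.3 in macrophage-like cells (1.54, 1.26 to 1.90). Xaf1, which promotes apoptosis, had ratios of 1.41 (1.17 to 1.70), 1.37 (1.02 to 1.86) and 1.09 (0.869 to 1.36) in the order fibroblast-like, macrophage-like and endothelial-like. Rtp4, which has been tied to control of the response in mice, had 1.46 (1.15 to 1.85), 1.44 (1.12 to 1.87) and 1.14 (0.856 to 1.51). Both were higher in AC8 in the first 2 classes beyond counting error.

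Ifi35 was at 49.5 and 63.1 CPM in fibroblast-like cells (1.28, 1.06 to 1.53) and 40.1 and 58.9 in macrophage-like cells (1.47, 1.08 to 2.03), where the ratio was 0.911 with thinned cells. Parp14, an ADP-ribosyltransferase, was at 131 and 102 CPM in macrophage-like cells (0.776, 0.641 to 0.940) and 36.0 and 29.96 in fibroblast-like cells. Trim30a was at 79.4 and 72.2 CPM in macrophage-like cells (0.908, 0.716 to 1.16). Ifi44 was measured in endothelial-like cells alone, at 31.6 and 36.7 CPM (1.16, 0.684 to 1.98).

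The counting intervals of the members can be read against all genes. In fibroblast-like cells 16 of 29 members had an interval above 1, where 14.3% of all measured genes did, and 3 had one below 1 against 23.9%. In macrophage-like cells the counts were 19 of 32 above (14.9% of genes) and 5 below (17.7%), and in endothelial-like cells 11 of 29 above (9.02%) and 1 below (9.87%). Past 2-fold on the log2(CPM + 10) scale were 5 members higher in fibroblast-like cells (0.132% of genes higher and 0.132% lower), 4 in the macrophage-like class (1.12% and 0.468%) and 1 in the endothelial-like class (0.301% and 0.684%), and none lower. Members with the response element core before the start had median log2 ratios of 0.53, 0.61 and 0.45 in the 3 classes, with 10, 11 and 10 members measured. Those with a table entry and no match had 0.19, 0.25 and 0.14, with 12, 13 and 14 members. The log2 ratios ran from -0.15 to 1.21, -0.58 to 1.55 and -0.29 to 0.98 with a match. Without one they ran from -0.35 to 0.57, -0.62 to 1.34 and -0.43 to 0.82, so the ranges overlapped in each class. Members with a match include Isg15, Ifit1, Ifit3, Ifit3b and Rsad2 of the core list. All genes with and without a match were not compared, and a part of the element in the ratios was not tested.

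Most fibroblast-like and macrophage-like cells had no core UMI at a common depth. To compare cells at 1 depth, each was thinned at random to 1000 UMIs, and every kept cell could be used. At that depth 84.7% and 78.8% of fibroblast-like cells, 81.6% and 77.6% of macrophage-like cells and 50.2% and 47.9% of endothelial-like cells had no core UMI. In B cell-like cells, the class with the lowest level, 92.8% had none in both libraries, with median depths of 1224 and 1170 UMIs before thinning. No class is known to lack these genes, so the B cell-like share, which rests on 13 and 22 core UMIs, is a low value to compare with and not a background. The 10% of cells with the most core UMIs held 78.6% and 76.3% of them in the fibroblast-like class, 66.9% and 73.8% in the macrophage-like class and 50.7% and 59.2% in the endothelial-like class. That share grows where UMIs are sparse, and it was 100% in B cell-like cells of both libraries. The variance of core UMIs per cell over their mean, which is 1 for UMIs spread evenly by chance, was 1.98 and 1.02 in B cell-like cells. It was 4.22 and 7.61 in fibroblast-like, 1.71 and 5.19 in macrophage-like and 3.68 and 6.63 in endothelial-like cells.

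Cells with UMIs of at least 3 different core members were more frequent in the AC8 library. They were 16 of 1899 (0.843%, interval 0.482 to 1.36) and 34 of 1535 (2.21%, 1.54 to 3.08) fibroblast-like cells. They were 4 of 608 (0.658%, 0.180 to 1.68) and 21 of 756 (2.78%, 1.73 to 4.21) macrophage-like cells. They were 56 of 619 (9.05%, 6.91 to 11.6) and 64 of 570 (11.2%, 8.76 to 14.1) endothelial-like cells. The intervals of the 2 libraries did not overlap in fibroblast-like and macrophage-like cells and overlapped widely in endothelial-like cells. These intervals count the cells of 1 library each, and cells are not replicates, so they do not test a difference between genotypes. At the cells' own depth the shares were 2.47% and 6.78% in fibroblast-like and 3.78% and 11.1% in macrophage-like cells.

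**Figure D3:**
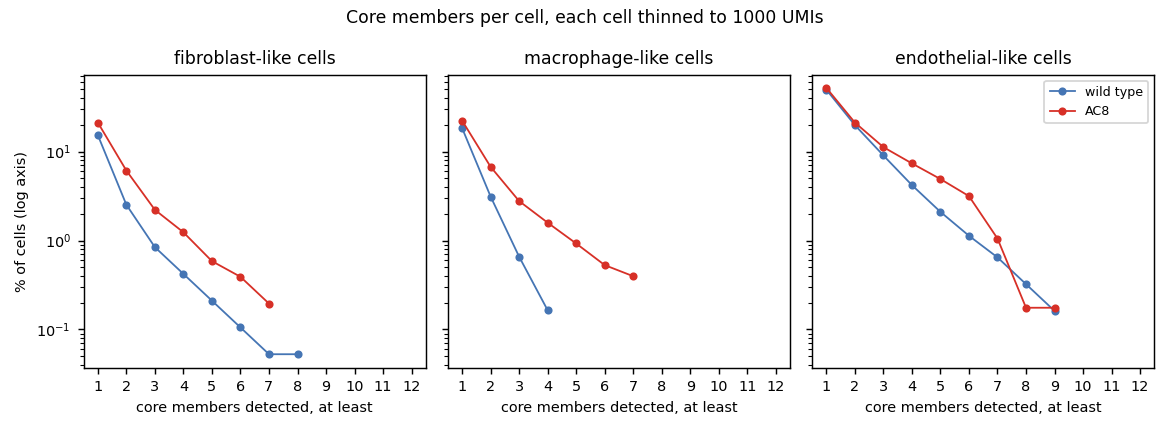
Share of cells, on a log axis, with UMIs of at least the number of core members given on the horizontal axis, after thinning each cell to 1000 UMIs, for wild type (blue) and AC8 (red). In fibroblast-like and macrophage-like cells the AC8 share at 3 or more members (2.21% and 2.78%) was above the wild-type share (0.843% and 0.658%).

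Those cells also held much of the difference in mean level. Per 1000 UMIs the mean number of core UMIs was 0.248 and 0.472 in fibroblast-like, 0.253 and 0.470 in macrophage-like and 1.13 and 1.63 in endothelial-like cells. Cells with at least 3 core members held 26.1% and 43.7%, 11.0% and 44.8%, and 46.4% and 60.5% of those UMIs. They accounted for 63.2%, 84.3% and 92.4% of the excess of AC8 over wild type. Among the cells with fewer than 3 core members the ratio of means was 1.47, 1.18 and 1.09, against 1.90, 1.85 and 1.44 over all cells. The definition of these cells uses the core UMIs themselves, so these shares are a description. The largest number of core UMIs in a single thinned cell was 25 and 38, 7 and 18, and 24 and 32.

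Of 4 members outside the core that were looked at, Ifi27l2a, Ifitm3 and Bst2 were higher in the same cells in each of the 3 classes. In the 34 AC8 fibroblast-like cells with at least 3 core members the mean per 1000 UMIs was 5.50 for Ifi27l2a and 3.41 for Ifitm3, against 2.81 and 1.71 in the other cells. In the 21 such AC8 macrophage-like cells Ifitm3 was at 3.48 against 1.16, and Bst2 at 0.857 against 0.346. In the 64 AC8 endothelial-like cells Ifitm3 was at 5.03 against 2.18 and Bst2 at 1.70 against 0.666. Ifitm2 did not share this, at 0.735 against 0.937, 0.476 against 0.584 and 1.20 against 1.16. Median depth before thinning was 2951 against 2735 UMIs, 3414 against 3066, and 1316 against 1389.

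Ifi27l2a was spread over most cells, unlike the core. At 1000 UMIs, 51.1% and 72.4% of fibroblast-like cells and 57.1% and 69.7% of macrophage-like cells had at least 1 UMI of it, against 4.68% and 10.0% of endothelial-like cells. Ifitm3 was found in 71.8% and 74.3%, 53.0% and 58.7%, and 83.2% and 81.6% of the 3 classes. Isg15 was found in 4.95% and 9.97%, 5.59% and 7.28%, and 20.4% and 26.0%, and Ifit3 in 2.53% and 5.08%, 1.15% and 3.04%, and 6.30% and 9.65%. Single cells reached far above these means, such as 61 Ifit3 UMIs in 1 AC8 fibroblast-like cell and 60 Isg15 UMIs in 1 AC8 macrophage-like cell, both unthinned.

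Cells with an IFIT UMI were compared with cells without. In AC8 fibroblast-like cells 46 of 134 cells with an IFIT UMI (34.3%) had Isg15, against 107 of 1401 without (7.64%), and in wild type the shares were 16.5% and 4.33%. In AC8 macrophage-like cells they were 35% of 40 and 5.73% of 716 cells, and in wild type 6.67% of 15 and 5.56% of 593. In endothelial-like cells they were 40.7% and 16.0% in wild type and 52.9% and 19.96% in AC8. Actb, a cytoskeletal gene outside the response, had UMIs in 87.3% and 89.4% of the AC8 fibroblast-like cells with and without an IFIT UMI.

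The cells with at least 3 core members did not sit in a single cluster. The members and other interferon genes were left out of the genes used for clustering, so the clustering could not group these cells by them. The 34 AC8 fibroblast-like cells lay in all 7 clusters of the class, at most 12 in 1 cluster, and the 21 AC8 macrophage-like cells in all 4, at most 9 in 1. Over the 13 clusters of these classes with at least 20 cells in each library, the summed core level was higher in AC8 in 11 and lower in 2. Ifi27l2a was higher in 12 of the 13, Isg15 in 12 and Ifit3 in 11.

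Among fibroblast-like clusters the core ratio ran from 1.38 to 2.61, and the interval included 1 in cluster 12 alone. The highest AC8 level was in cluster 5, led by Gsn, Fbln1 and Dcn and holding Ccl19, at 324 and 846 CPM (2.61, 2.21 to 3.10). The Pi16 and Mfap5 clusters 9 and 10 were the lowest, at 149 and 245 CPM and 114 and 279 CPM. Cluster 9 had the highest Ifi27l2a level of these clusters, at 2844 and 5604 CPM.

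Macrophage-like cluster 4, led by complement genes, C5ar1 and Cxcl2, had core levels of 208 and 579 CPM (2.79, 2.28 to 3.43). Cluster 2, with the resident macrophage genes Lyve1 and Folr2, had 267 and 513 CPM (1.92, 1.62 to 2.28). Cluster 18 did not share the direction, with 608 and 572 CPM (0.942, 0.588 to 1.54) in 27 and 36 cells. Endothelial-like cluster 19, with 28 and 30 cells, was at 1219 and 709 CPM (0.581, 0.352 to 0.943), whereas clusters 1 and 7 were at 1148 and 1725 and at 1052 and 1399 CPM. Isg15 in cluster 19 had 10 and 1 UMIs.

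**Figure D4:**
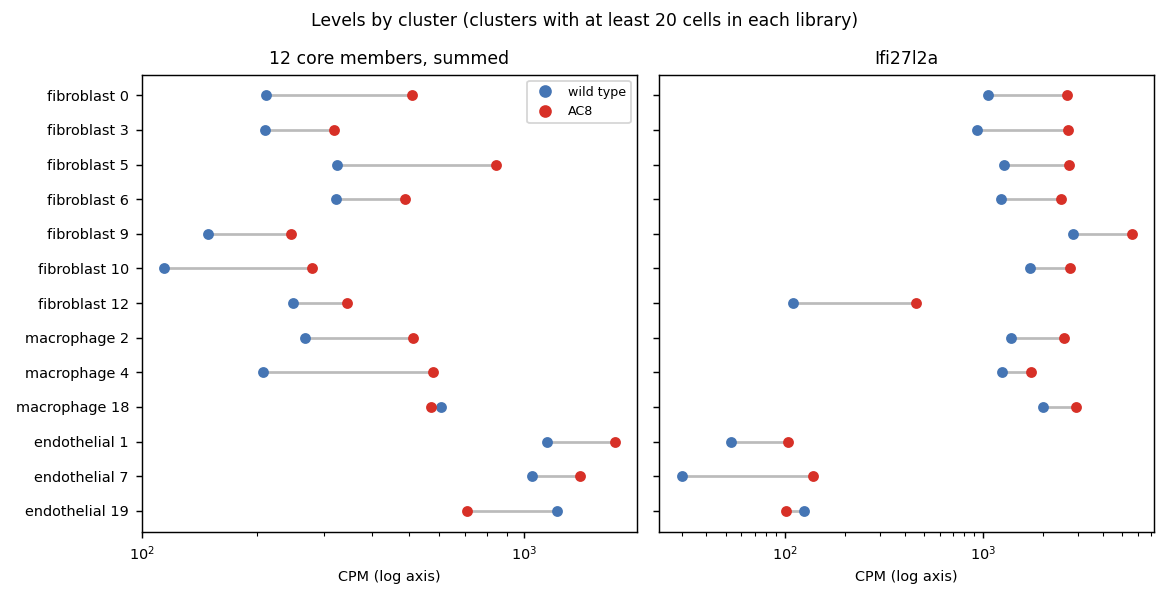
Level by cluster of the 12 core members summed (left) and of Ifi27l2a (right), in CPM on a log axis, for wild type (blue) and AC8 (red), over the 13 clusters with at least 20 cells in each library. Grey lines join the 2 libraries of a cluster. The core level was higher in AC8 in all clusters shown but macrophage 18 and endothelial 19.

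B cell-like cells, 111 and 292 in number, held enough UMIs of 6 members. Of the 6, 1 was higher in AC8, 0 were past 1.5-fold higher and 4 lower, where 9.44% and 11.9% of measured genes were. Past 2-fold were 0 higher and 2 lower (2.2% and 2.52% of genes), and the ratio interval was above 1 for 0 and below 1 for 3 (6.12% and 8.67%). Ifi203 was at 263 and 159 CPM (ratio 0.604, with 40 and 60 UMIs), Ddx58 at 112 and 47.7 CPM, Ifitm3 at 132 and 58.3 and Samd9l at 132 and 74.2. Ifi27l2a was at 566 and 605 CPM and Bst2 at 118 and 90.1. No core member reached 30 UMIs in the class. Summed markers of other classes went both ways there. The 8 endothelial markers were lower in AC8, at 1783 and 249 CPM with 0 and 1 markers at 0. T cell, NK cell, monocyte, mural, Schwann, cardiomyocyte and plasmacytoid dendritic cell markers were lower too. Fibroblast (434 and 623 CPM), macrophage (52.6 and 170), dendritic cell (1474 and 2161) and neutrophil markers (0 and 21.2) were higher. The part of free RNA or of other cells in the values of the members was not tested.

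The 6 smaller classes have from 22 to 117 cells per library and were not read for single members. Their summed core level was 688 (interval 514 to 902) and 438 CPM (341 to 555) in monocyte-like cells, a ratio of 0.637 (0.438 to 0.932). It was 676 and 895 CPM in Schwann-like, 316 and 327 in mural-like, 167 and 107 in dendritic cell-like, 236 and 146 in NK cell-like and 208 and 130 in T cell-like cells, each with a ratio interval that included 1. The monocyte-like value rests on 52 and 69 core UMIs, of which 12 in wild type were Rsad2 UMIs of 1 cell and 9 in AC8 were Rsad2 UMIs of 1 cell. The class is 1 cluster whose 10 leading genes hold the monocyte markers Plac8, Ly6c2 and Chil3 and the neutrophil genes Camp, Ngp, S100a8 and S100a9, so its name is uncertain. The name of the NK cell-like class, also 1 cluster, is uncertain too. Its 10 leading genes hold the NK markers Gzma and Nkg7 and the neutrophil markers Retnlg and S100a9. Single NK markers were found in 17.6% to 58.8% of its wild-type cells and 21.5% to 49.2% of its AC8 cells.

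Genes upstream in the pathway differed in both directions. Of 8 transcription factors measured in fibroblast-like and in macrophage-like cells, 1 was past 1.5-fold higher in each, and of 6 in endothelial-like cells 1 was, with none lower, and in each class it was Irf7. Irf7, the factor that amplifies type I interferon, had 24.7 and 57.9 CPM (2.34, 1.86 to 2.96) in the fibroblast-like class, 42.9 and 144 (3.35, 2.55 to 4.48) in the macrophage-like class and 97.0 and 165 (1.70, 1.30 to 2.23) in the endothelial-like class. Of the receptors, 5 of 6 were measured in each of the 3 classes and none was past 1.5-fold in either direction. The same held on that scale for the 3 kinases Jak1, Jak2 and Tyk2, and Jak1 was at 174 and 144 CPM in fibroblast-like cells (0.826, 0.742 to 0.919). By plain ratio 2 values were past 1.5-fold. Tyk2 was at 8.01 and 13.2 CPM in fibroblast-like cells (1.64, 1.06 to 2.57). Jak2 was at 53.7 and 33.9 CPM in macrophage-like cells (0.631, 0.460 to 0.868).

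Among genes that sense nucleic acid and lead to interferon, 10 were measured in fibroblast-like cells, with 1 past 1.5-fold lower, 11 in macrophage-like cells with 2 lower, and 5 in endothelial-like cells with none past it. None was past it higher in these classes on the same log2(CPM + 10) scale. Those lower were Tlr3, a receptor for double-stranded RNA, in fibroblast-like cells (18.3 and 7.94 CPM), and the DNA sensor Cgas (32.2 and 16.2) and the adaptor Tank (189 and 113) in macrophage-like cells. Among the brakes on the pathway, Socs3 was at 603 and 985 CPM in endothelial-like cells (1.63, 1.47 to 1.82) and at 897 and 902 in fibroblast-like cells. In macrophage-like cells Socs3 was at 1202 and 1466 CPM (1.22, 1.15 to 1.29), and Sh2b3, an adaptor that restrains cytokine signalling, was past 1.5-fold lower at 51.5 and 25.4 CPM (0.493, 0.349 to 0.696). Interferon transcripts themselves were scarce. Ifnb1 had 1 UMI in each library over all deposited cells, Ifna2 had 1 and 0, and Ifna1, Ifna4, Ifna5, Ifnl2 and Ifnl3 had 0. Ifng had 80 and 37 UMIs, in 30 and 18 cells. In macrophage-like cells Ifng was at 26.5 and 2.95 CPM, from 37 and 8 UMIs (0.111, 0.0447 to 0.243), past 1.5-fold lower, and the summed level of 8 T cell markers there was 127 and 58.5 CPM and of 7 NK cell markers 97.3 and 32.8 CPM, with none at 0.

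Several measures differed between the libraries beside these results. Median depth was 2161 and 2739 UMIs in fibroblast-like, 1992 and 3078 in macrophage-like and 1312 and 1376 in endothelial-like cells. Dissociation stress genes, a list of 31, took 5.65% and 4.87%, 7.68% and 6.39%, and 4.94% and 5.60% of UMIs. The 13 mitochondrially encoded genes took 1.81% and 1.68%, 2.05% and 1.63%, and 2.10% and 2.13%. Their median log2 ratios were -0.46, -0.68 and -0.19, with 3, 7 and 2 past 1.5-fold lower. The summed level of 7 neutrophil markers was 45.8 and 6.58 CPM in fibroblast-like cells (1 and 3 at 0) and 520 and 111 CPM in macrophage-like cells (1 at 0 in both), and that of 8 mural markers was 530 and 227 CPM in endothelial-like cells (none at 0). Markers of plasmacytoid dendritic cells, strong interferon producers, were at 1.83 and 1.82, 31.5 and 13.6, and 43.6 and 30.1 CPM, with 2 and 3, 3 and 1, and 4 and 4 of the 5 at 0. The part of these measures in the results was not tested.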

How the data were processed

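The authors deposited UMI counts for every gene in every cell. Per the labels' protocols these counts were made with Cell Ranger, whose version is not given in the sources consulted, and the submitters' processing notes name the build mm10. Barcodes were deposited as running numbers, so cell barcodes shared by the libraries could not be counted. Cells with at most 10% mitochondrial UMIs were kept, 173 and 145 presumed doublets were removed at 0.8% per 1000 deposited cells, and 2000 variable genes and 30 components were clustered by Leiden at resolution 1 (Python 3.11.15, scikit-learn 1.9.0, leidenalg 0.10.2, scipy 1.17.1). Members and other interferon genes, 128 in all, were left out of clustering. A class name needed 3 of its markers in at least 10% of a cluster's cells, and this scoring was set after seeing the clusters. Counts were summed per library and class. Ratios carry exact binomial intervals, CPM exact Poisson intervals and shares Clopper-Pearson intervals, and the pseudocount is 10 CPM. All members were open to be named, with values for those with at least 100 UMIs over both libraries in a class. Values of members below that were added to complete the groups by role, after they were seen. The ratio step was tested on simulated data. The members, lists and alternatives were chosen with earlier results of these data known. Gene positions are from GENCODE vM21 (GRCm38), in which 22039 gene symbols (98.2%) matched. Total depth was 9664932 and 11076564 UMIs in 5800 and 4867 deposited cells.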

Additional observations from a re-analysis of the deposited data

How the results depend on the processing

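No paired analysis was possible because each genotype has 1 library and no replicate numbers. Of 211 alternative values of the medians, counts and shares, 184 stayed close to the reported value, 27 moved and 0 reversed. The median over members kept its direction in each class under every alternative run. Counts of members past 1.5-fold moved most. Higher in fibroblast-like cells they went from 5 to 9 with a pseudocount of 1 CPM. Higher in macrophage-like cells they went from 10 to 4 with at least 100 UMIs per member, 6 without the 5% of cells with the most core UMIs, 6 with thinned cells and 4 at 2-fold. Lower there, they went from 1 to 3 with at least 2000 UMIs per cell, 0 without doublet removal, 2 with a pseudocount of 1 CPM, 3 with CPM over nuclear genes outside the technical lists, 2 without the 5% of cells, 0 at 2-fold and 0 without the Spp1 cluster. Higher in endothelial-like cells they went from 8 to 3 over all deposited cells, 5 with at least 100 UMIs, 2 without the 5% of cells and 1 at 2-fold, and lower from 0 to 1 with a pseudocount of 1 CPM and 1 without the 5% of cells. In B cell-like cells, higher went from 0 to 2 with at least 1 UMI, and lower from 4 to 10 with at least 1 UMI, 1 with at least 100, 2 with thinned cells and 2 at 2-fold. The AC8 minus wild-type share of cells with 3 or more core members went in fibroblast-like cells from 1.37 points to 3.60 for 2 or more members, 0.376 for 5 or more and 4.30 at the cells' own depth, and in macrophage-like cells from 2.12 to 7.33 at their own depth. The cause was not tested, beyond fewer members being measured at 100 UMIs. Of 620 values for 69 pairs of a member and a class, 602 stayed close and 18 moved, and in 11 pairs the ratio crossed 1 in at least 1 alternative. Under the stricter cell filter of 2000 UMIs and 1000 genes no cluster was named endothelial-like or B cell-like, so those classes have no value there. Another random draw and leaving out the Spp1 cluster were added after seeing the data. Depth limits the core members most, since many have under 30 UMIs outside the 3 largest classes.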
